A study of Mus musculus with 6 samples.

Results

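The periportal amino acid and gluconeogenic genes described here are Cyp2f2, Hsd17b13, Ctsc, Aldh1b1, Hal, Sds, Sdsl, Etnppl, Pck1 and G6pc. They were chosen by gene symbol from what is known of liver zonation, and make up 10 of the 47729 genes in the count files. RNA-seq was made from frozen livers of C57BL/6 mice fed 0.1% DDC, a porphyrin-raising compound that injures hepatocytes and bile ducts, over 17 days. There were 3 libraries from livers with Atoh8 knockdown, which the series design calls shAtoh8. Another 3 came from control livers, which the series design calls shNC and the sample labels call WT. Below, n counts libraries. All 6 libraries share the strain and the diet, and no group without DDC was analysed here. The sources used here do not give how the knockdown construct was delivered or in which cells it acts. The labels name hepatocyte as the cell type, whereas the protocol describes whole livers, and they do not say that replicates were separate animals, so the p-values describe the spread among these libraries, part of which may be technical.

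Hepatocytes along the liver lobule divide their work by position. Those near the portal vein receive blood rich in oxygen and nutrients and are known for making glucose, breaking down amino acids and forming urea, while those near the central vein make glutamine and metabolize drugs. The enzymes of glucose production and of serine and histidine breakdown are also set by hormones, with glucagon and glucocorticoids raising them and insulin lowering them, so feeding state is known to change them. Atoh8 is a transcription factor gene of the basic helix-loop-helix family.

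Atoh8 was lower in every library labelled knockdown than in every control. Atoh8 stood at 10.2, 9.83 and 5.64 CPM (read counts scaled to library size with TMM factors) in knockdown replicates 1 to 3, against 63.8, 16.8 and 16.4 CPM in control replicates 1 to 3. Its log2 fold change was -1.92 (SE 0.58, edgeR adjusted p = 0.197) with all libraries and -0.95 (SE 0.23, edgeR adjusted p = 0.0115) without control replicate 1. Reads in genes ranged from 36915731 to 37969644 per knockdown library and from 31912058 to 36970491 per control library. Control replicate 1 stood apart: its log2 CPM correlated at 0.916 and 0.907 with the other controls over genes, which correlated at 0.984 with each other. The Y-linked gene Ddx3y, singled out after its values were seen, lay between 28.1 and 38.4 CPM in the knockdown libraries, against 9.67 CPM in control replicate 1 and 92.6 and 110.1 CPM in the other controls. The fold changes of the 10 genes and the counts of each list are therefore given both with all libraries and with control replicate 1 left out. The 10 hepatocyte markers summed to between 113100 and 129600 CPM in knockdown livers, against 123400 to 160200 CPM in controls. Most of each sum came from Alb, at 82510 to 92540 CPM in knockdown livers and 77150 to 103000 CPM in controls. The 13 markers of neutrophils, T cells, NK cells and mast cells stayed at or below 0.729 CPM in sum in every library. Of the hepatocyte markers 9 of 10 had negative log2 fold changes, with a median of -0.40, and 0 passed edgeR with all libraries, where 2 had an unadjusted p under 0.05 and DESeq2 and limma-voom called 0 and 3. Their median was -0.13 without control replicate 1, where edgeR called 3 of 10 lower, beside 16.1% of all genes. The 10 stellate cell and fibroblast markers summed to 332 to 473 CPM in knockdown livers, against 208 to 224 CPM in controls, and all 10 had positive log2 fold changes, 6 of them with no overlap. Of these 10, edgeR called 1 higher with all libraries and 7 without control replicate 1, DESeq2 called 5 and limma-voom 7, with a median of 1.05 with all libraries and 1.197 without control replicate 1. Over all genes, 13.0% had every knockdown library above every control. The shares of all genes called higher were 0.741% and 16.5% in these edgeR fits, 3.73% in DESeq2 and 18.7% in limma-voom. The 8 cholangiocyte markers summed to 333 to 556 CPM in knockdown livers, against 45.4 to 52.3 CPM in controls, nearly all of it from Spp1, while the defining marker Krt19 had 0 to 5 reads in every library. Of the 4 that could be tested, edgeR called 1 higher with and without control replicate 1, DESeq2 called 1 and limma-voom 3. With all libraries 3 of these had positive and 1 a negative log2 fold change. Their median was 0.53 with all libraries and 1.51 without control replicate 1. The 8 endothelial markers summed to 149 to 204 CPM in knockdown livers, against 159 to 192 CPM in controls, and each overlapped between the groups. Their median log2 fold change was 0.08 with all libraries and 0.12 without control replicate 1, where edgeR called 0 and 1 higher. The part of these cell types in the results below was not tested.

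Cyp2f2 and Ctsc were higher, and Hsd17b13, Sdsl and Etnppl lower, in all 3 knockdown livers than in any control liver. Among all 13767 genes tested, 13.0% had every knockdown library above every control and 10% every knockdown library below. In bulk liver, fewer cells of a type and less RNA per cell cannot be told apart. With all 6 libraries, 0 of the 10 genes reached an adjusted p under 0.05 in edgeR (quasi-likelihood, Benjamini-Hochberg), where 0.741% of all genes were called higher and 0.123% lower. At an unadjusted p under 0.05 there were 5, the same genes whose groups did not overlap, against 14.5% of all genes. With control replicate 1 left out, Cyp2f2 and Ctsc were called higher and Hsd17b13 and Etnppl lower, where 16.5% of all genes were called higher and 16.1% lower. These counts of 2 and 2 of the 10 genes are near the shares of all genes in that fit. DESeq2 called Ctsc with all libraries, where it called 3.73% of all genes with an adjusted p higher and 1.4% lower. Limma-voom with sample quality weights called the same 4 genes as the fit without control replicate 1, where it called 18.7% of all genes higher and 18.2% lower, so its counts too are near those of all genes. The median log2 fold change over the 10 genes was -0.22 with all libraries and 0.19 without control replicate 1, beside -0.05 and 0.01 over all genes tested.

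**Figure D1:**
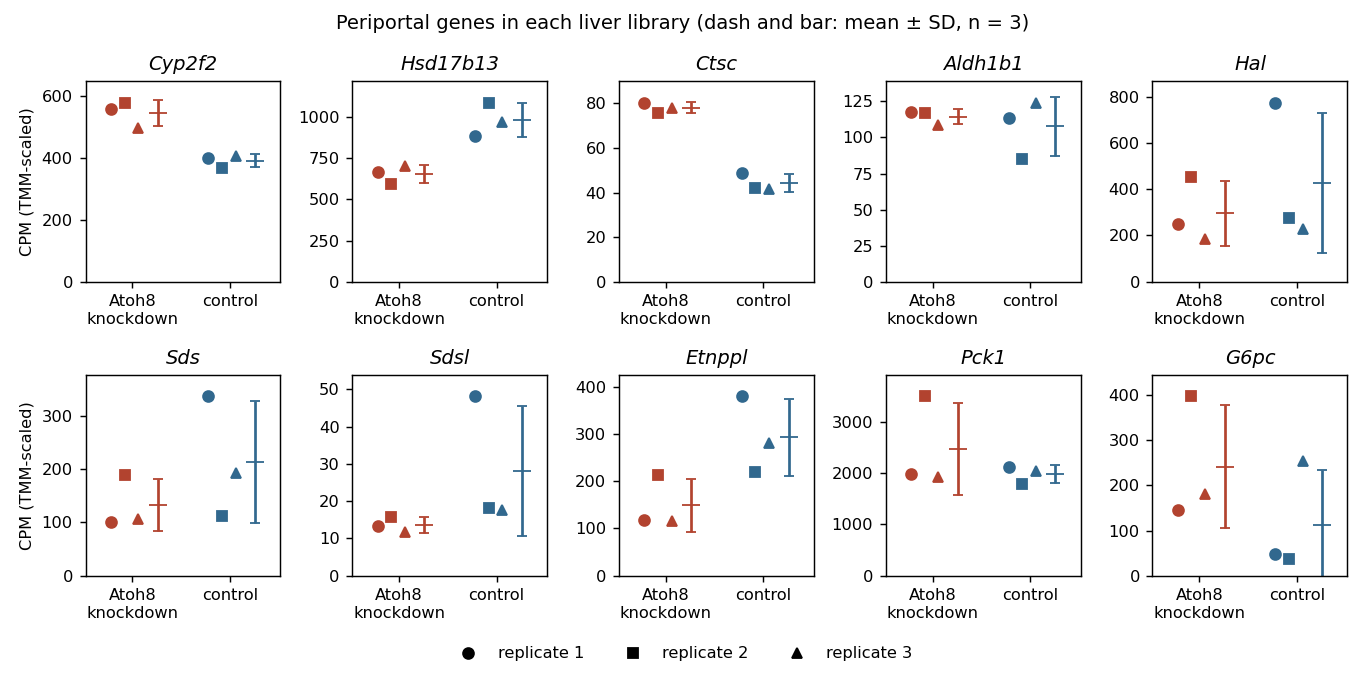
Expression of each gene in TMM-scaled CPM on axes that start at 0, with Atoh8 knockdown libraries in red on the left and control libraries in blue on the right; symbols mark the replicate, and dashes with bars give the mean ± SD (n = 3), the lower bar of G6pc in controls being clipped at 0. Cyp2f2 and Ctsc lie wholly higher and Hsd17b13 wholly lower in knockdown livers, whereas Hal, Sds and Sdsl show 1 control library, replicate 1, far above the rest.

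Levels differed widely between these genes on the length-scaled FPKM scale deposited by the authors. In knockdown livers the order of mean FPKM was Pck1, Hsd17b13, Cyp2f2, Sds, G6pc, Hal, Etnppl, Aldh1b1, Ctsc and Sdsl, and in controls it was Hsd17b13, Pck1, Cyp2f2, Sds, Etnppl, Hal, Aldh1b1, G6pc, Ctsc and Sdsl. Pck1 averaged 931 ± 322 FPKM in knockdown livers and 731 ± 52.6 FPKM in controls (SD, n = 3 each). Hsd17b13 averaged 588 ± 48.8 FPKM in knockdown livers and 895 ± 108 FPKM in controls (SD, n = 3 each), so the leading gene differed between the groups. In neither group did the ranges of these top 2 genes overlap. In knockdown livers Sds, G6pc, Hal, Etnppl and Aldh1b1 formed a run in which each overlapped the next, and all other neighbours were apart. In controls Pck1 and Cyp2f2, and Hal and Aldh1b1, were apart as well, and all other neighbours below them overlapped. Sdsl was the lowest in both, at 9.82 ± 0.745 FPKM in knockdown livers and 18.1 ± 10.4 FPKM in controls (SD, n = 3 each).

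**Figure D2:**
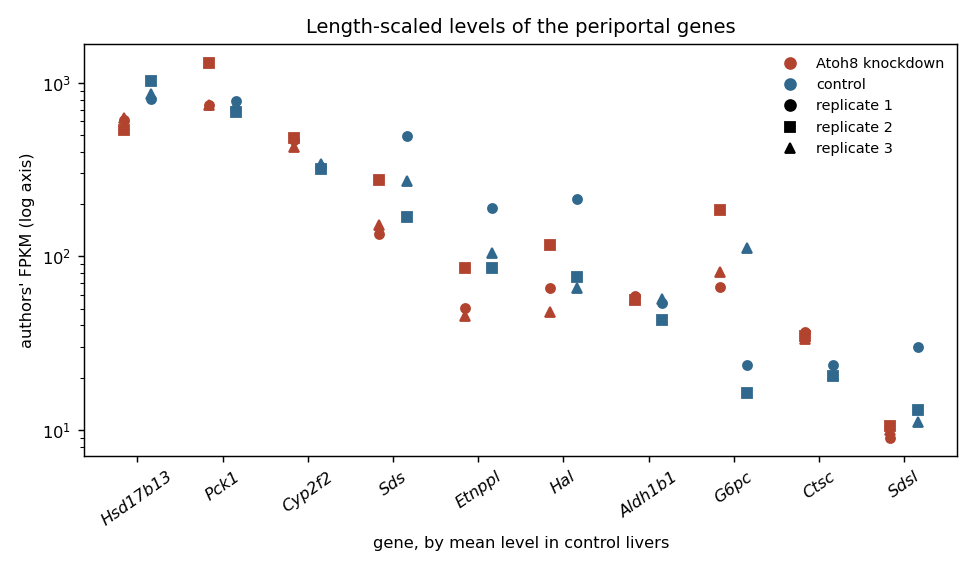
FPKM values deposited by the authors, on a log axis, for each gene in the order of its mean in controls, with knockdown libraries in red to the left of control libraries in blue and symbols for replicates. Levels run from about 9.02 FPKM for Sdsl to 1303 FPKM for Pck1, and G6pc spreads the most within a group.

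Cyp2f2 and Hsd17b13, both abundant in hepatocytes, differed between the groups in opposite directions. Cyp2f2 (ENSMUSG00000052974), a cytochrome P450 that activates naphthalene and a standard marker of periportal hepatocytes, lies on GRCm38 chromosome 7 at 27119909 to 27133660 on the plus strand, with up to 10 exons. Its level was 558, 579.5 and 498 CPM in knockdown replicates 1 to 3, against 401, 369 and 406 CPM in control replicates 1 to 3. Every knockdown library lay above every control, and control replicate 1 lay within the other controls. The log2 fold change was 0.48 (SE 0.17, edgeR adjusted p = 0.273) with all libraries and 0.51 (SE 0.15, edgeR adjusted p = 0.0261) without control replicate 1. An antisense gene, Gm15883, overlaps Cyp2f2, and had 130 to 177 reads per knockdown library and 54 to 146 per control library, beside at least 12102 for Cyp2f2.

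Hsd17b13 (ENSMUSG00000034528), which encodes a lipid droplet protein of hepatocytes, lies on GRCm38 chromosome 5 at 103955440 to 103977410 on the minus strand. It stood at 667, 591 and 701 CPM in knockdown livers and at 881, 1085 and 968 CPM in controls. All knockdown libraries were below all controls, with control replicate 1 the lowest of its group. It differed by a log2 fold change of -0.58 (SE 0.19, edgeR adjusted p = 0.221) with all libraries, and fell without control replicate 1 (log2 fold change -0.64, SE 0.16, edgeR adjusted p = 0.0121). The ratio of Hsd17b13 to Cyp2f2 FPKM within a library, looked at after the values of both were seen, was 1.29, 1.10 and 1.47 in knockdown replicates 1 to 3, against 2.48, 3.20 and 2.54 in control replicates 1 to 3.

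The fit without control replicate 1 carried a trend with base composition, since its log2 fold changes correlated with transcript GC content over 14182 genes (Spearman 0.344, a description over genes, against 0.0807 with all libraries). Mean transcript GC was 54.2% for Cyp2f2, 46.3% for Hsd17b13, 44.7% for Ctsc and 45.2% for Etnppl, beside a median of 50.5% over tested genes. With an offset for GC content and transcript length added to that fit, Hsd17b13 (log2 fold change -0.62, edgeR adjusted p = 0.00959) and Ctsc (1.04, edgeR adjusted p = 0.000386) were still called, and Cyp2f2 (0.29, edgeR adjusted p = 0.129) and Etnppl (-0.59, edgeR adjusted p = 0.128) were not. Sdsl was called there (-0.66, edgeR adjusted p = 0.00747). That fit called 13.0% of all genes higher and 18.7% lower, beside 1 and 2 of the 10 genes.

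The promoters of these 2 genes are shown because the genes differed in opposite directions. Each covers 250 bases before to 50 bases after the RefSeq start, from the RefSeq table on GRCm38.p6, read 5′ to 3′ on the gene's strand. Capitals mark the letters TGACG (core of the cyclic AMP response element), GTTAAT (part of the HNF1 site) or TGTTTAC (forkhead site) on either strand. Positions count from the start, with -1 just before it. The Cyp2f2 window, chr7:27119705-27120004 on the plus strand, holds none of the 3, and the Hsd17b13 window, chr5:103977339-103977638 on the minus strand, holds TGACG on the reverse strand at -33.
Cyp2f2: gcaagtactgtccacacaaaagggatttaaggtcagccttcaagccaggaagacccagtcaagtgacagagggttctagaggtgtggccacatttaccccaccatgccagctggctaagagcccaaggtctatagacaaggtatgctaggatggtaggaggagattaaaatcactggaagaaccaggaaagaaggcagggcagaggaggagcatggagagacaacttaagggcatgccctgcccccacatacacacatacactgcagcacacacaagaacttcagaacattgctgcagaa
Hsd17b13: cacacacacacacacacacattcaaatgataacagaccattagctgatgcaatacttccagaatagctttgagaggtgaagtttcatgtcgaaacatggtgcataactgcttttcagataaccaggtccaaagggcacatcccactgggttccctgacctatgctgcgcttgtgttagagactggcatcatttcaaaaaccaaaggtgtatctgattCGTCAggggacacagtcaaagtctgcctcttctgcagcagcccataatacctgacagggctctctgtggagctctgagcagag

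Over all 32851 promoter windows of that length in the table, 20.8% held TGACG, 7.10% GTTAAT, 3.65% TGTTTAC and 1.79% the full element TGACGTCA, which contains TGACG. The letters CAAAG, part of HNF4 sites, were in 53.9% and the E-box CANNTG in 72.3%. CAAAG occurred in the Hsd17b13 window and not in that of Cyp2f2, and CANNTG in both. Windows were in the table for 8 of the 10 genes, not for Sds and Sdsl. A match describes letters and is not a binding site.

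Ctsc showed the smallest p of the 10 genes. It (ENSMUSG00000030560) encodes cathepsin C, a lysosomal peptidase that trims proteins from their amino end and activates proteases of immune cells, and lies on GRCm38 chromosome 7 at 88278085 to 88310888 on the plus strand. Its level was 80.4, 75.7 and 78.1 CPM in knockdown livers, against 48.8, 42.3 and 41.4 CPM in controls. The groups were well apart and tight, at 78.1 ± 2.34 CPM in knockdown livers and 44.1 ± 4.01 CPM in controls (SD, n = 3 each). The log2 fold change was 0.82 (SE 0.17, edgeR adjusted p = 0.0827) with all libraries. Without control replicate 1 Ctsc rose by a log2 fold change of 0.91 (SE 0.12, edgeR adjusted p = 0.000666), and DESeq2 called it with all libraries (0.81, SE 0.19, DESeq2 adjusted p = 0.0016). With the offset for GC content and length and all libraries, the value was 0.53 (edgeR adjusted p = 0.354).

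Macrophages also express Ctsc, and their markers had positive fold changes too. The 10 macrophage and Kupffer cell markers summed to 544 to 655 CPM in knockdown livers, against 628 CPM in control replicate 1 and 334 and 309 CPM in the other controls. None was at 0, all 10 had positive log2 fold changes, 2 of 10 had every knockdown library above every control, and 0 passed edgeR with all libraries, while 3 had an unadjusted p under 0.05, DESeq2 called 0 and limma-voom 10. With control replicate 1 left out, edgeR called 9 of the 10 markers higher, beside 16.5% of all genes. Their median log2 fold change there was 0.94, beside 0.53 with all libraries and the 0.91 of Ctsc in the same fit. Lyz2 stood at 94.8, 72.4 and 108.5 CPM in knockdown livers, against 73.4, 41.3 and 44.4 CPM in controls. In control replicate 1 the summed markers lay at the knockdown level, while Ctsc lay 1.17 times as high as the mean of the other controls. The part of macrophages in the Ctsc difference was not tested.

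Aldh1b1 (ENSMUSG00000035561), a mitochondrial aldehyde dehydrogenase gene with up to 2 exons, lies on GRCm38 chromosome 4 at 45799022 to 45804604 on the plus strand. It stood at 117.5, 117.2 and 109 CPM in knockdown livers, against 114, 85.0 and 124 CPM in controls. The groups overlapped, with control replicate 2 the lowest of the 6 libraries and control replicate 3 the highest. The log2 fold change was 0.09 (SE 0.20, edgeR adjusted p = 0.871) with all libraries and 0.15 (SE 0.17, edgeR adjusted p = 0.540) without control replicate 1. It was -0.06 when control replicate 2 was left out. With the offset for GC content and length it was -0.055 with all libraries and -0.19 without control replicate 1. The direction was thus not stable across settings.

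The 4 genes of amino acid and phosphoethanolamine breakdown shared a pattern across the libraries. All of them were highest in control replicate 1, and within the knockdown group all were highest in replicate 2. Neither trait was theirs alone. Cyp2f2, Pck1 and G6pc were also highest in replicate 2 within the knockdown group. In control replicate 1, 27.1% of all tested genes were at least 1.5 times as high as the mean of the other controls. None of the 4 genes passed edgeR with all libraries. Sdsl and Etnppl had every knockdown library below every control.

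Hal (ENSMUSG00000020017) encodes histidine ammonia-lyase, the first step of histidine breakdown, and lies on GRCm38 chromosome 10 at 93488768 to 93519304 on the plus strand. It stood at 250.3, 453 and 185 CPM in knockdown livers, against 774, 274 and 229 CPM in controls. Knockdown replicate 2 lay above control replicates 2 and 3, so the groups overlapped. The log2 fold change was -0.52 (SE 0.53, edgeR adjusted p = 0.708) with all libraries and 0.24 (SE 0.30, edgeR adjusted p = 0.575) without control replicate 1, which turned the direction. The later steps of the same pathway, named for their place in it and outside the naming rule, did not pass in either fit. Uroc1, the urocanate hydratase gene, averaged 442 CPM in knockdown livers and 426 CPM in controls. Amdhd1, the imidazolone propionase gene, had 161, 264 and 125 CPM in knockdown livers, against 355, 141 and 102 CPM in controls. Ftcd, which passes the one-carbon unit of histidine to folate, had 345, 386 and 297 CPM in knockdown livers, against 554, 318 and 272 CPM in controls. Both were highest in control replicate 1 and next in knockdown replicate 2, as Hal was. Like Hal they turned direction without control replicate 1, with log2 fold changes of 0.60 for Amdhd1 and 0.23 for Ftcd there, against -0.12 and -0.16 with all libraries.

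Sds (ENSMUSG00000029597) encodes serine dehydratase, which turns serine into pyruvate, and Sdsl (ENSMUSG00000029596) encodes its relative, serine dehydratase-like. They are neighbours on GRCm38 chromosome 5, Sds at 120476526 to 120483932 on the plus strand and Sdsl at 120458186 to 120472810 on the minus strand, with 3715 bases between them. Sds stood at 101, 188 and 106 CPM in knockdown livers, against 336, 111 and 193 CPM in controls. The groups overlapped, and control replicate 3 was 1.73 times as high as control replicate 2. Its log2 fold change was -0.69 (SE 0.43, edgeR adjusted p = 0.526) with all libraries and -0.19 (SE 0.29, edgeR adjusted p = 0.645) without control replicate 1. Plbd2 overlaps Sds on the other strand with 4225 to 6736 reads per knockdown library and 4932 to 11793 per control library, and Sds itself had 4171 to 7210 per knockdown library and 3878 to 10148 per control library. The antisense gene Gm15690 had 234 to 297 reads per knockdown library and 110 to 222 per control library, so reads where these genes overlap are uncertain.

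Sdsl had 13.3, 15.8 and 11.7 CPM in knockdown livers, against 48.1, 18.1 and 17.7 CPM in controls. Each knockdown library was below each control, but control replicates 2 and 3 lay close to knockdown replicate 2. The log2 fold change was -1.04 (SE 0.42, edgeR adjusted p = 0.314), and -0.38 (SE 0.16, edgeR adjusted p = 0.0942) without control replicate 1. The FPKM ratio of Sds to Sdsl was 14.98, 26.2 and 15.1 in knockdown livers, against 16.5, 13.0 and 24.3 in controls, so the balance of the pair varied among libraries of either group and the groups overlapped.

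Etnppl (ENSMUSG00000019232) encodes the lyase that breaks down phosphoethanolamine, and lies on GRCm38 chromosome 3 at 130617448 to 130637521 on the plus strand. It stood at 118.5, 213 and 115 CPM in knockdown livers, against 379.9, 219 and 280.1 CPM in controls. Knockdown replicate 2 lay just under control replicate 2 in CPM, and just over it in FPKM, at 85.8 against 85.3. Etnppl had a log2 fold change of -0.98 (SE 0.32, edgeR adjusted p = 0.227) with all libraries. With control replicate 1 left out it fell (log2 fold change -0.73, SE 0.25, edgeR adjusted p = 0.0461).

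**Figure D3:**
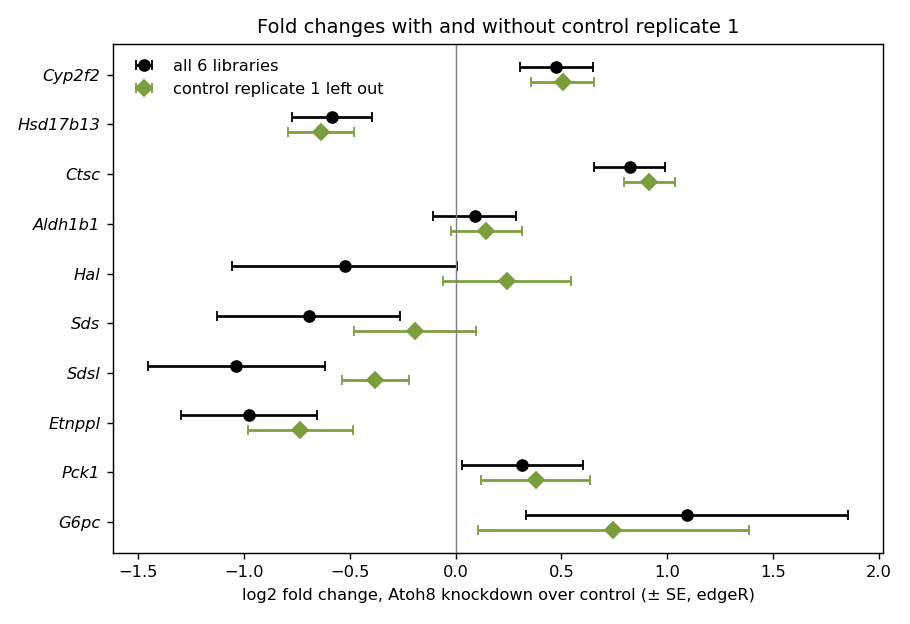
Log2 fold change of each gene in Atoh8 knockdown over control livers, with the standard error of the edgeR fit as bars, from all 6 libraries (black circles) and with control replicate 1 left out (green diamonds). Ctsc, Cyp2f2 and Hsd17b13 barely move between the fits, while Sdsl goes to -0.38 and Hal crosses 0 when that library is left out.

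Pck1 and G6pc both encode enzymes of the gluconeogenic route. Pck1 (ENSMUSG00000027513), the cytosolic phosphoenolpyruvate carboxykinase, lies on GRCm38 chromosome 2 at 173153048 to 173159273 on the plus strand, and G6pc (ENSMUSG00000078650), the catalytic subunit of glucose-6-phosphatase that releases free glucose, on chromosome 11 at 101367561 to 101377903 on the plus strand. Neither passed edgeR with all libraries or without control replicate 1. Pck1 stood at 1974, 3492 and 1923 CPM in knockdown livers, against 2118, 1789 and 2035 CPM in controls. Only knockdown replicate 2 lay outside the range of the controls, at 1.79 times the mean of the other knockdown libraries. The log2 fold change was 0.31 (SE 0.29, edgeR adjusted p = 0.673) with all libraries and 0.38 (SE 0.26, edgeR adjusted p = 0.292) without control replicate 1. Without knockdown replicate 2 it was 0.036 (edgeR adjusted p = 0.975).

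G6pc varied more than any other of the 10 genes, over a range of 3.42 on the log2 scale across the 6 libraries. It stood at 146, 398 and 181.5 CPM in knockdown livers, against 48.9, 37.2 and 254 CPM in controls. Control replicate 3 lay within the knockdown range, and it was 6.83 times as high as control replicate 2. Its log2 fold change was 1.09 (SE 0.76, edgeR adjusted p = 0.580) with all libraries and 0.74 (SE 0.64, edgeR adjusted p = 0.408) without control replicate 1. Without control replicate 3 it was 2.49 (SE 0.50, edgeR adjusted p = 0.144), and without knockdown replicate 2 it was 0.58. The FPKM ratio of Pck1 to G6pc was 11.3, 7.01 and 9.20 in knockdown livers, against 33.1, 41.6 and 6.59 in controls, so control replicate 3 lay nearer to the knockdown libraries than to the other controls here as well. Slc37a4, the transporter that brings glucose-6-phosphate to the enzyme made from G6pc and also named outside the rule, stood at 163, 249 and 144 CPM in knockdown livers, against 585, 295 and 333 CPM in controls. It had a log2 fold change of -1.13 (SE 0.34, edgeR adjusted p = 0.195) and was called lower without control replicate 1 (-0.75, edgeR adjusted p = 0.0228).

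The promoters of Pck1 and G6pc are shown because this pair shared its highest library, knockdown replicate 2, and is the textbook case of control by cyclic AMP. Cyp2f2 was also highest in that library. The Pck1 window, chr2:173152823-173153122 on the plus strand, holds TGACG on the reverse strand at -90 and GTTAAT on the reverse strand at -192. The G6pc window, chr11:101367466-101367765 on the plus strand, holds GTTAAT at -221 and no TGACG. Neither holds TGTTTAC or the full TGACGTCA, and both hold CAAAG. Capitals mark the same letters as above.
Pck1: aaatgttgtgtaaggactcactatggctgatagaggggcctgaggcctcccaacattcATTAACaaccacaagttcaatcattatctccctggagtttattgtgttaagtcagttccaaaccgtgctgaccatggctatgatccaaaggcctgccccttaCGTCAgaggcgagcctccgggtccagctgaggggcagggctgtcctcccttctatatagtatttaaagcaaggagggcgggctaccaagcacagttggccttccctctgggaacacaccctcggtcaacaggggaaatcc
G6pc: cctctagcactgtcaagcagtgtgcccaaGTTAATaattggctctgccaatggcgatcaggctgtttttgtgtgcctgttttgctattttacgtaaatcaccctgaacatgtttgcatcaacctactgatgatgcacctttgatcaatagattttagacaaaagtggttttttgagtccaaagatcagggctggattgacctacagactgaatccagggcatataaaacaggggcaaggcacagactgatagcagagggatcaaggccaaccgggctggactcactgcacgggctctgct

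Variation between libraries of the same group was shared by several of these genes. Knockdown replicate 2 was at least 1.5 times as high as the mean of the other knockdown libraries for 5 of the 10 genes, Hal, Sds, Pck1, G6pc and Etnppl, and for 6.09% of all tested genes. Their ratios were 2.08, 1.82, 1.79, 2.43 and 1.82. Cyp2f2, Hsd17b13, Ctsc and Aldh1b1 lay between 0.865 and 1.10 times that mean. In the same library 9 of 34 gluconeogenic and hormone response genes and 11 of 48 other amino acid breakdown genes reached 1.5 times. So did 5 of 27 other periportal genes, 6 of 27 pericentral genes and 2 of 10 hepatocyte markers. These lists share genes, so the counts are not independent. The 2 hepatocyte markers were Tat, also in the gluconeogenic and amino acid lists, and Cps1, also in the periportal list. In knockdown replicate 2, 5 of 10 stellate cell and 3 of 4 tested cholangiocyte markers were at least 1.5 times lower than the mean of the other knockdown libraries. The same held for 0 of 10 macrophage and 1 of 8 endothelial markers, and for 8.48% of all tested genes. The part of these cell types in the ratios was not tested. Control replicate 1 was at least 1.5 times as high as the mean of the other controls for Hal, Sds, Sdsl and Etnppl, and for 27.1% of all tested genes. The ratios were 3.08, 2.21, 2.69 and 1.52. G6pc lay at 0.336 times that mean in control replicate 1, where 31.7% of all tested genes were at least 1.5 times lower. The sources used here do not give the feeding state of the mice at death.

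**Figure D4:**
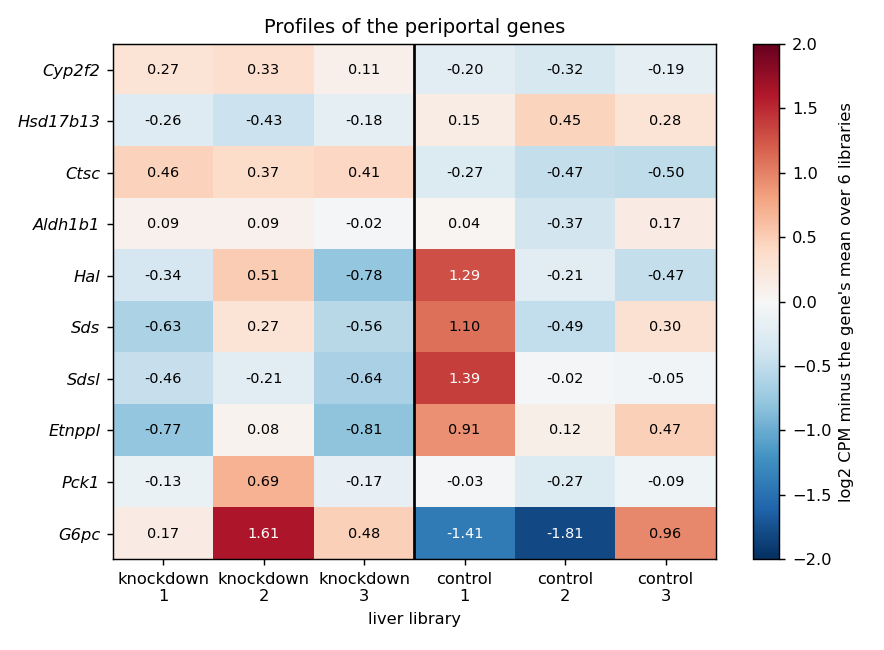
Log2 CPM of each gene minus its mean over the 6 libraries, red above and blue below the mean, with knockdown libraries left of the line and control libraries right. Hal, Sds, Sdsl and Etnppl are all highest in control replicate 1, at 0.91 to 1.39, whereas G6pc is lowest in control replicates 1 and 2, at -1.41 and -1.81, and highest in knockdown replicate 2, at 1.61.

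For each of the 10 genes the gene with the most similar profile was found among the 11057 genes that averaged 1 CPM or more, by the root mean square distance of centred log2 CPM over the 6 libraries. The closest match was between Hsd17b13 and Fbxl4, at 0.0351, where the median distance of all genes from Hsd17b13 was 0.485. Fbxl4 stood at 16.2, 14.7 and 17.1 CPM in knockdown livers, against 21.1, 25.0 and 23.6 CPM in controls. Ctsc was nearest to Aaas at 0.0419, Cyp2f2 to Frmd4b at 0.0516 and Aldh1b1 to Ano8 at 0.06997. Etnppl was nearest to Hamp, the gene of the iron hormone hepcidin, at 0.112, and Pck1 to Ppp1r15a, a stress-induced phosphatase subunit gene, at 0.124. Sdsl was nearest to Sbk1 at 0.146, Sds to the pseudogene Rps16-ps2 at 0.161, and Hal to Dusp28 at 0.187. G6pc had the most distant match of the 10, the manganese transporter gene Slc30a10, at 0.477, where the median distance of all genes from G6pc was 1.29. The distance is not scaled to the spread of a gene, which was widest for G6pc, so it does not rank likeness of pattern between the 10 genes. With 6 libraries, such nearness describes these samples.

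Other genes of the same routes had more negative than positive fold changes, and none passed the test with all libraries. Of 34 tested genes of gluconeogenesis and its hormonal control, 0 passed edgeR in either direction with all libraries, 9 had an unadjusted p under 0.05, and DESeq2 called 1 higher and 4 lower and limma-voom 6 higher and 8 lower. Over all genes, 14.5% had an unadjusted p under 0.05. DESeq2 called 3.73% of all genes higher and 1.4% lower, and limma-voom 18.7% and 18.2%. Fold changes were positive for 9 of the 34 and negative for 25, with a median of -0.32 on the log2 scale beside -0.05 over all genes. Without control replicate 1, 5 of the 34 were called higher and 7 lower, beside 16.5% and 16.1% of all genes. The median there was -0.14 beside 0.01 over all genes. The genes with the smallest p were Slc25a11, the mitochondrial oxoglutarate carrier gene, and Pck2, the mitochondrial form of the enzyme made from Pck1. Slc25a11 averaged 45.6 ± 2.43 CPM in knockdown livers and 83.4 ± 18.9 CPM in controls (SD, n = 3 each, edgeR adjusted p = 0.133). Pck2 stood at 14.7, 12.8 and 10.53 CPM in knockdown livers, against 7.92, 3.96 and 5.39 CPM in controls, a log2 fold change of 1.14 (SE 0.31, edgeR adjusted p = 0.157). Without control replicate 1, Slc25a11 was called lower (-0.66, edgeR adjusted p = 0.00353) and Pck2 higher (1.46, edgeR adjusted p = 0.0011).

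Of 48 other amino acid breakdown and transport genes, 0 passed edgeR with all libraries, 13 had an unadjusted p under 0.05, DESeq2 called 4 lower and limma-voom 2 higher and 18 lower. Over all genes, 14.5% had an unadjusted p under 0.05. DESeq2 called 3.73% of all genes higher and 1.4% lower, and limma-voom 18.7% and 18.2%. Negative fold changes were found for 43 of the 48 and positive ones for 5. Their median was -0.42, beside -0.05 over all genes and -0.40 over the hepatocyte markers. Without control replicate 1, 2 were called higher and 11 lower, beside 16.5% and 16.1% of all genes. The median there was -0.28, beside 0.01 over all genes and -0.13 over the hepatocyte markers. Aass, which starts lysine breakdown, stood at 205, 325 and 278 CPM in knockdown livers, against 533, 474 and 546 CPM in controls, a log2 fold change of -0.94 (SE 0.22, edgeR adjusted p = 0.122). Shmt1, the cytosolic serine hydroxymethyltransferase gene, averaged 85.2 ± 1.10 CPM in knockdown livers and 149 ± 28.5 CPM in controls (SD, n = 3 each, edgeR adjusted p = 0.128). Both were called lower without control replicate 1, Aass at -0.91 (edgeR adjusted p = 0.00628) and Shmt1 at -0.62 (edgeR adjusted p = 0.00428).

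Psat1 and Mthfd2 were the serine and one-carbon genes with the smallest p, both at low levels and above every control in all knockdown libraries. Of 11 tested serine synthesis and one-carbon genes, 0 passed edgeR with all libraries, 5 had an unadjusted p under 0.05, DESeq2 called 2 higher and limma-voom 3 higher and 3 lower. Over all genes, 14.5% had an unadjusted p under 0.05. DESeq2 called 3.73% of all genes higher and 1.4% lower, and limma-voom 18.7% and 18.2%. Fold changes were positive for 4 of the 11 and negative for 7, with a median of -0.18 beside -0.05 over all genes. Psat1, the phosphoserine aminotransferase gene of serine synthesis, stood at 3.15, 1.75 and 2.89 CPM in knockdown livers, against 0.861, 0.688 and 0.812 CPM in controls, with no overlap. Its log2 fold change was 1.72 (SE 0.36, edgeR adjusted p = 0.0875), and 1.81 (edgeR adjusted p = 0.00662) without control replicate 1. Mthfd2, a mitochondrial folate enzyme gene, stood at 4.92, 1.99 and 4.34 CPM in knockdown livers, against 1.16, 0.659 and 1.202 CPM in controls, a log2 fold change of 1.90 (SE 0.45, edgeR adjusted p = 0.125), and 2.03 (edgeR adjusted p = 0.00825) without control replicate 1. Of 13 genes tested without control replicate 1, 3 were called higher and 2 lower, beside 16.5% and 16.1% of all genes. The median there was -0.06, beside 0.01 over all genes.

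Both the other periportal list and the pericentral list held genes on either side. Of 27 tested other periportal genes, 0 passed edgeR with all libraries, 6 had an unadjusted p under 0.05, DESeq2 called 1 higher and 1 lower and limma-voom 5 higher and 5 lower. Their median was -0.06, beside -0.05 over all genes. Over all genes, 14.5% had an unadjusted p under 0.05. DESeq2 called 3.73% of all genes higher and 1.4% lower, and limma-voom 18.7% and 18.2%. C8a, a complement gene, had 573, 473 and 485 CPM in knockdown livers, against 62.1, 219 and 209 CPM in controls (log2 fold change 1.64, SE 0.45, edgeR adjusted p = 0.161). Arg1, the arginase of the urea cycle, had 1153, 1712 and 1298 CPM in knockdown livers, against 3837, 2132 and 2281 CPM in controls (-0.99, SE 0.30, edgeR adjusted p = 0.200). Of 27 pericentral genes, 0 passed edgeR with all libraries, 7 had an unadjusted p under 0.05, DESeq2 called 1 lower and limma-voom 2 higher and 12 lower, with a median of -0.36. Cyp2c37, which belongs to a family of similar genes, had 115, 258 and 77.7 CPM in knockdown livers, against 505, 558 and 345 CPM in controls (-1.64, SE 0.45, edgeR adjusted p = 0.162). Lgr5, a Wnt pathway receptor gene, had 4.15, 5.57 and 5.06 CPM in knockdown livers, against 2.35, 3.27 and 2.05 CPM in controls (0.94, SE 0.29, edgeR adjusted p = 0.203). Without control replicate 1, edgeR called C8a (1.27) and Lgr5 (0.90) higher and Arg1 (-0.66) and Cyp2c37 (-1.58) lower, at adjusted p-values of 0.000474, 0.0337, 0.0251 and 0.0143 in that order. In the fit without control replicate 1, 4 of 28 periportal genes were called higher and 3 lower, and 2 of 27 pericentral genes higher and 10 lower. That fit called 16.5% of all genes higher and 16.1% lower. The medians in that fit were -0.03 for the periportal and -0.37 for the pericentral genes, beside 0.01 over all genes. The difference between the zones was not tested.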

How the data were processed

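Raw read counts per gene were deposited by the authors for each library, and a table of FPKM values, scaled to transcript length and library size, for all 6. FastQC, Trim Galore, HISAT2 (listed as 2.10), HTSeq, Cufflinks (2.2.1) and GRCm38 (mm10) are named, without role or order, per the submitters' processing notes. The sources used here do not state the strand setting or annotation release. Lines that name no gene held 2.48% to 5.66% of reads outside genes and 4.69% to 6.87% ambiguous reads, and were left out. Groups and replicate numbers came from the labels.

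Genes were kept by filterByExpr, TMM factors were computed, and counts were tested in edgeR 4.0.16 (R 4.3.3; quasi-likelihood, group alone) across all genes, with Benjamini-Hochberg adjustment over all genes tested. The SE was derived from the test statistic. Log2 CPM used a prior count of 2. Alternatives used DESeq2 1.42.0, limma 3.58.1 and the settings in the closing section. The edgeR step was tested on simulated data. The simulation held no outlying library such as control replicate 1, so it cannot show how the fit handles that library. A floor of 3 reads was 0.079 to 0.094 CPM, which covers counting error alone. Replicates of a group differed by more than sampling noise (chi-square per gene at least 50.2 at 20 or more reads). Coordinates and GC content are from GENCODE M21. Genes, lists and tests were chosen with earlier results of these data known. The naming rule took the 10 genes, Atoh8, per list the 3 genes of lowest p if they passed and otherwise 2, and the nearest profile of each gene.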

Additional observations from a re-analysis of the deposited data

How the results depend on the processing

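With all libraries, the edgeR calls were 102 genes higher and 17 lower, of which 0 were among the 10 genes. DESeq2 called 590 and 221, limma-voom with quality weights 2576 and 2512, and no filter 213 and 34. Library size alone called 235 higher and lifted the median log2 fold change of all genes by 0.24, with no change of direction among the 10 genes. Limma on log2(FPKM + 1) called 27 lower. Leaving out 1 library gave 0 to 2348 higher and 0 to 2284 lower, the highest without control replicate 1, and 0 to 2 of the 10 genes higher and 0 to 2 lower. Among the 10 genes, DESeq2 and library size alone called 1 higher (Ctsc, edgeR adjusted p = 0.0312 with library size alone), and limma-voom 2 higher and 2 lower. The GC and length offset, added after seeing the data, called 302 higher and 230 lower with all libraries, and with control replicate 1 left out 1838 and 2657, with 1 and 2 of the 10 genes.

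Leaving out 1 library gave -0.89 to 0.24 for Hal, -0.0582 to 0.202 for Aldh1b1 and -0.0618 to 0.197 for Ano8. Hal changed direction without control replicate 1 (0.24), with limma-voom (0.0400) and with the offset and that library left out (0.10). Aldh1b1 did so without control replicate 2 (-0.0582), with the offset (-0.0553) and with the offset and control replicate 1 left out (-0.19). Ano8 did so in the same settings (-0.0618, -0.10 and -0.27), and Ppp1r15a with the offset and control replicate 1 left out (-0.0158). None of these values passed in any such setting, and the cause was not tested.

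The replicate block called 33 genes higher and 2 lower and 0 of the 10. The labels do not say that replicate numbers mark shared animals or batches, so the numbers were not taken as pairs. Deviations of same-numbered libraries correlated at 0.254, -0.0820 and 0.290 over genes. Replicates 1 and 3 of each group correlated best with their own number, and replicate 2 of each group did not. These correlations do not settle whether the numbers mark pairs.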
